A study of Mus musculus with 6 samples.

Results

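The nuclear factor-κB (NF-κB) subunits and their IκB partners were examined in group 2 innate lymphoid cells (ILC2s) of the mouse lung. Of the 22554 genes in the count table, 10 were taken by symbol. These were the transcription factor genes *Rela*, *Relb* and *Rel*, the precursor genes *Nfkb1* and *Nfkb2*, the genes of the classical IκB proteins *Nfkbia*, *Nfkbib* and *Nfkbie*, and the genes of the nuclear IκB proteins *Nfkbiz* and *Bcl3*. The rule uses symbols only, and all 10 passed the filter on low counts.

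NF-κB is a dimer of Rel-homology proteins that the classical IκB proteins hold in the cytoplasm until the IκB kinase marks them for destruction. In the canonical arm this frees dimers such as p65 (from *Rela*) with p50 (from *Nfkb1*), and in the non-canonical arm the kinase NIK drives processing of the p100 precursor (from *Nfkb2*) to p52, which pairs with RelB. IL-33, the alarmin that activates ILC2s, signals through MyD88 to NF-κB, and *Nfkbia*, *Nfkb2* and *Relb* are well-known targets of the factor itself.

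RNA had been sequenced from 6 libraries of lung ILC2s sorted from wild-type BALB/cByJ mice, 8 weeks old by the labels and female by the study's methods. The study's reporting summary names both female and male mice. All mice had received 3 intranasal doses of 0.5 µg recombinant mouse (rm) IL-33. Both groups of sorted cells then spent 24 h in culture (50000 cells per mL) in rmIL-2 and rmIL-7, each at 10 ng/mL, and whether rmIL-33 was also present differs within the study, which names it for this culture in a figure legend, leaves it out of the RNA-sequencing methods and gives it as optional in the general culture methods. The groups differed in the added protein, which was isotype control in replicates 16, 17 and 18 and CD200-Fc, the ligand CD200 joined to an antibody Fc part, in replicates 35, 36 and 38. The comparison asks what engagement of the CD200 receptor did to these transcripts. No source says which mouse or culture each library came from, so p-values measure only the spread between these libraries, which may be technical.

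Library totals were 20096555 to 23239853 expected counts with isotype control and 24038189 to 33321709 with CD200-Fc. All 14 ILC2 markers lay above 1 CPM (counts relative to the library total, scaled by TMM) in every library. Of these, *Ptprc* and *Klrg1* were called higher with CD200-Fc by edgeR and *Il13* lower (log2 fold changes 0.31, 0.41 and -0.34). The call of *Il13* held in only 8 of 16 alternative analyses. Of all tested genes edgeR called 1.48% higher and 0.595% lower. The most abundant marker, *Il5*, overlapped between the groups. *Gata3* and *Rora* lay below isotype control in every CD200-Fc library and *Id2* and *Areg* above it, and none of them passed the edgeR test. The groups of *Gata3* nearly touched, at 1085.46 CPM in isotype replicate 16 and 1085.38 CPM in CD200-Fc replicate 36. Of all tested genes 11.2% lay lower and 11.6% higher without overlap. Of the markers that edgeR did not call, DESeq2 called *Areg* and *Il1rl1* higher and *Rora* lower, where it called 6.38% higher and 3.5% lower of the genes it adjusted. Summed over the 14 ILC2 markers the level did not overlap, at 9730 to 9940 CPM with isotype control against 10100 CPM with CD200-Fc. Summed over 4 measured T cell markers the level was 25.3 to 28.6 against 24.3 to 27.9 CPM. Most of it was *Cd3g*, at 21.5 to 25.5 against 21.7 to 24.2 CPM. *Cd3e* was at 3.11 to 3.81 against 2.52 to 3.50 CPM, and *Cd4* and *Cd5* were below 1 CPM throughout. Over 6 macrophage and dendritic cell markers the sum was 3.34 to 7.41 against 4.29 to 18.6 CPM. The upper value was that of CD200-Fc replicate 38 alone, where *Lyz2* had 9.78 CPM against at most 1.74 CPM in any other library. The sum of the 6 structural lung markers measured did not overlap, at 44.8 to 51.0 against 53.3 to 62.8 CPM, a gap that rested on *Epcam* (24.8 to 25.9 against 29.8 to 35.3 CPM). *Pecam1* overlapped, *Krt18* was lower in every CD200-Fc library, and *Sftpc*, *Col1a1* and *Pdgfra* were below 1 CPM throughout. Nor did the sums overlap for the 3 ILC3 markers measured, at 21.0 to 31.7 against 14.5 to 20.8 CPM. The same held for *Ccr3*, the eosinophil marker measured, at 4.67 to 5.08 against 5.66 to 10.5 CPM. Summed B cell, neutrophil, mast cell and basophil, and NK cell and ILC1 markers overlapped between the groups, each list at 20.2 CPM or less in every library. The part of these differences in the results was not tested.

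In cells treated with CD200-Fc, *Nfkb2* fell by 33.9% (95% interval of the change -42.0 to -24.7%) and *Nfkbia* fell by 26.8% (-35.7 to -16.6%), and these were the 2 genes of the family called in the edgeR quasi-likelihood test. No member was called higher and 8 were not called, the threshold being 0.05 for p-values adjusted by Benjamini-Hochberg over all 14124 tested genes. In the same test 2.07% of all genes were called, 0.595% lower and 1.48% higher. *Rela* and *Relb* lay below isotype control in every library without passing the adjustment, and *Rel*, *Nfkb1*, *Nfkbib*, *Nfkbie*, *Nfkbiz* and *Bcl3* overlapped between the groups. Non-overlapping groups with CD200-Fc lower were thus found for 4 of 10 members and for 11.2% of all genes, and with CD200-Fc higher for 0 of 10 members and for 11.6% of all genes. At an unadjusted p under 0.05 edgeR gave 4 members lower and 0 higher, where 17.1% of all genes passed in either direction. DESeq2 called 0 members higher, where it called 6.38% of the 8920 genes with a DESeq2 adjusted p higher. *Rel* had no DESeq2 adjusted p and could not be called by it. The median log2 fold change of the 10 members was -0.12, beside -0.0035 over all tested genes.

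Before the values, the promoters of the 2 called genes are shown, because they hold the κB consensus, the decameric sequence bound by NF-κB dimers. RefSeq promoter windows (GRCm38.p6, the assembly also called mm10) were found for 7 members and run from 250 bases before to 50 bases after a start site. The sequences below are written 5′ to 3′ on the strand of the gene, and capitals mark matches to the κB consensus on either strand. The first *Nfkb2* window lies at chr19:46304487-46304786 on the plus strand, the second at chr19:46305445-46305744 on the plus strand, and the *Nfkbia* window at chr12:55492598-55492897 on the minus strand.
Nfkb2 first window: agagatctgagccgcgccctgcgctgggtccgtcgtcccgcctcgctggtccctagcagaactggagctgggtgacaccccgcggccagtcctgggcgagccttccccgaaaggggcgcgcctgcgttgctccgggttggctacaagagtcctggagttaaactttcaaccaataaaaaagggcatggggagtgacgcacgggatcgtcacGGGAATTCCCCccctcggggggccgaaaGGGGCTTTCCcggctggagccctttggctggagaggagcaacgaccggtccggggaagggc
Nfkb2 second window: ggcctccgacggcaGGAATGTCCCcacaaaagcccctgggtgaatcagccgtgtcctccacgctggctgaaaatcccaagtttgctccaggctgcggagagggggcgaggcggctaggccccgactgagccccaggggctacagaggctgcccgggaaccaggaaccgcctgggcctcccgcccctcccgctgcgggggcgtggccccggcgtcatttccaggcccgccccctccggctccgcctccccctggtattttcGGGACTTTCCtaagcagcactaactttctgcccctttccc
Nfkbia window: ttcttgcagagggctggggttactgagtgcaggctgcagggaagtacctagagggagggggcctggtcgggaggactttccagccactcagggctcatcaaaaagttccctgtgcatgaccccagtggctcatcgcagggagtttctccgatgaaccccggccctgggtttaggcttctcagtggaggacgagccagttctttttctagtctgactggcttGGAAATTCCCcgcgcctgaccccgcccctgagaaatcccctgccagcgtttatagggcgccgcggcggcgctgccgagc

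In the first *Nfkb2* window the palindromic GGGAATTCCC began 39 bases before the start site, overlapped by a second match shifted by 1 base, and GGGGCTTTCC began 11 bases before it. The second window held GGGACTTTCC just inside the transcript. The *Nfkbia* match, GGAAATTCCC as read on the gene's strand and matching on the opposite one, began 29 bases before the start site. Members that were not called also held matches, GGGAAATCCC in *Rel*, GGGGGATTCC in *Nfkbie* and GGGAAGTCCC in *Bcl3*. The windows of *Rela* and *Nfkbib* held none. In all, 5 of 7 members with a window held a match in at least 1 window, compared with 1178 of 9665 tested genes (12.2%) and 8.5% of all windows. A match describes letters only, and binding was not measured.

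Among the transcription factor subunits, *Rela* (chr19:5637483-5648130, plus strand), the gene of p65, had 148, 138 and 138 CPM in isotype replicates 16, 17 and 18 and 132, 117 and 120 CPM in CD200-Fc replicates 35, 36 and 38. Every CD200-Fc library lay below every isotype library, with a narrow gap. The mean went from 141 ± 5.55 to 123 ± 7.58 CPM (SD, n = 3), or -0.20 as a log2 fold change (SE 0.06, 95% interval -0.34 to -0.06), and did not pass the test (edgeR adjusted p = 0.118).

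*Relb* (chr7:19606217-19629438, minus strand), which encodes the partner of p52, was found at 29.8, 36.9 and 26.1 CPM with isotype control and at 24.8, 25.3 and 17.6 CPM with CD200-Fc. The groups were separate, but the lowest isotype library stood close to 2 of the CD200-Fc libraries. Its log2 fold change was -0.45 (SE 0.15, interval -0.77 to -0.13; edgeR adjusted p = 0.136). Under DESeq2, which called 4 members lower and 3.5% of the genes it adjusted, *Rela* and *Relb* passed with adjusted p of 0.0396 and 0.0391.

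*Rel*, the gene of c-Rel (chr11:23736847-23770970, minus strand), was the least abundant member, at 7.71, 6.12 and 5.92 CPM with isotype control and 10.1, 4.99 and 7.91 CPM with CD200-Fc. The CD200-Fc libraries held both the highest and the lowest value. Its log2 fold change of 0.21 had an interval of -0.29 to 0.71, which includes both signs (edgeR adjusted p = 0.711).

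**Figure D1:**
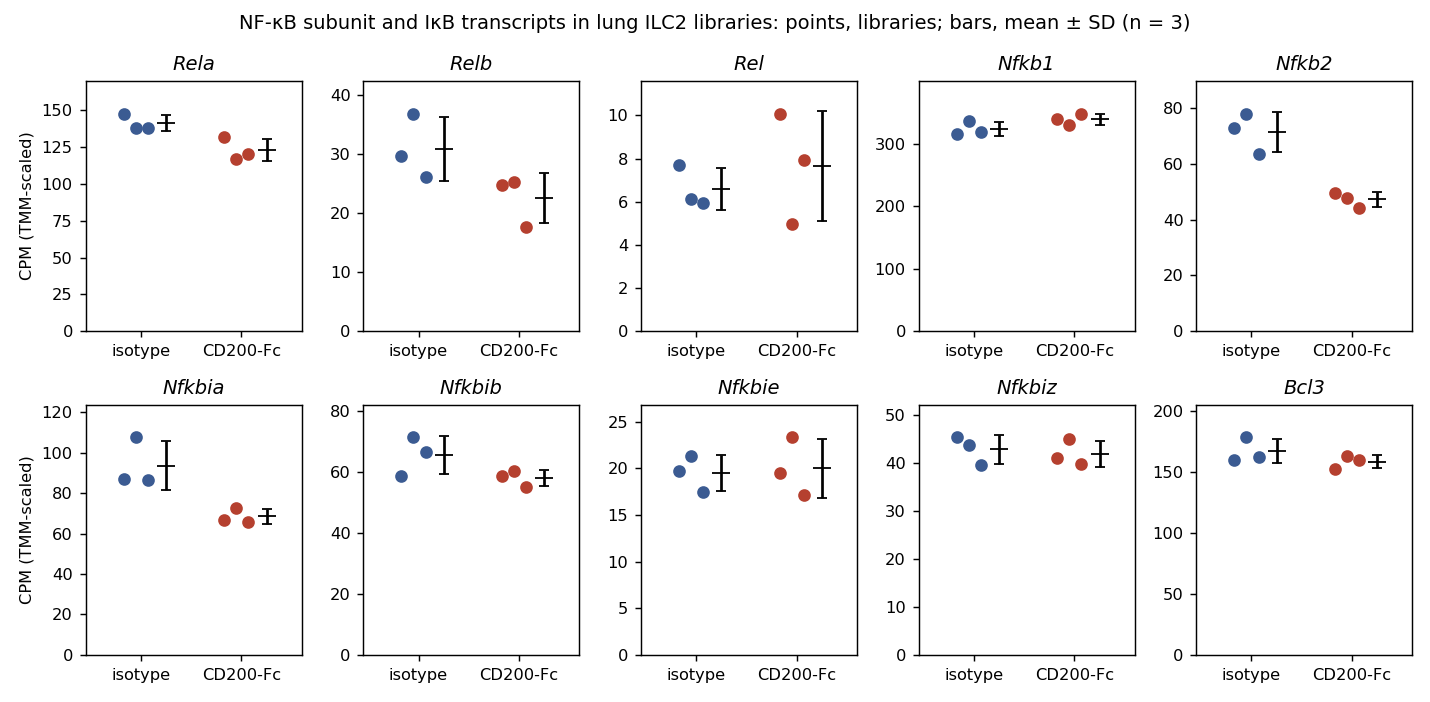
Levels of the 10 transcripts in CPM (vertical axes from 0) in each of 3 isotype (blue) and 3 CD200-Fc (red) libraries, with bars for mean ± SD. The CD200-Fc points lie below all isotype points for *Rela*, *Relb*, *Nfkb2* and *Nfkbia*, and the groups overlap in the other 6 panels.

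Of the precursor genes, *Nfkb2* (chr19:46304320-46312385, plus strand), which encodes p100 and p52, had 72.8, 78.0 and 63.6 CPM with isotype control and 49.6, 47.7 and 44.3 CPM with CD200-Fc. The highest CD200-Fc library was well below the lowest isotype library. Its mean went from 71.5 ± 7.28 to 47.2 ± 2.69 CPM (SD, n = 3), and its log2 fold change was -0.60 (SE 0.09, interval -0.79 to -0.41; edgeR adjusted p = 0.00405). Without each library in turn it ranged between -0.67 and -0.53, with edgeR adjusted p from 0.00446 to 0.0287. In bulk RNA, fewer cells that carry a transcript and less of it per cell cannot be told apart.

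The exons of *Nfkb2* share 531 bases with AC114539.1 and 299 bases with *Psd*, both on the opposite strand. The sources used here do not say whether the authors counted by strand, so that reads in these stretches cannot be assigned with certainty. The mean expected count was 141 for AC114539.1 and 21.2 for *Psd*.

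*Nfkb1* (chr3:135584655-135691547, minus strand), the gene of p105 and p50, had the highest counts of the family, with 315, 336 and 319 CPM in the isotype libraries and 339, 330 and 348 CPM in the CD200-Fc libraries. The groups overlapped. Its log2 fold change was 0.07 with an interval of -0.04 to 0.17 (edgeR adjusted p = 0.530), and the interval as a percent change ran from -2.61 to 12.9%. Within each library the ratio of *Nfkb2* to *Nfkb1*, with counts divided by transcript length, was 0.302, 0.305 and 0.262 with isotype control and 0.192, 0.190 and 0.167 with CD200-Fc. All CD200-Fc ratios were lower, by 0.66 on the log2 scale (SE 0.0962; two-sided exact permutation p = 0.1, the smallest that 3 libraries against 3 allow).

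Of the classical IκB genes, *Nfkbia* (chr12:55489410-55492647, minus strand), which encodes the rapidly resynthesised inhibitor IκBα, was measured at 86.9, 108 and 86.4 CPM with isotype control and 66.9, 72.6 and 65.9 CPM with CD200-Fc. Isotype replicate 17 stood above the other isotype libraries, and all CD200-Fc libraries were below all of them. The log2 fold change was -0.45 (SE 0.09, interval -0.64 to -0.26) and the edgeR adjusted p 0.0204. The call was lost, with edgeR adjusted p of 0.0532, 0.104, 0.0555 and 0.0794, without isotype replicate 17 and without CD200-Fc replicates 35, 36 and 38 respectively. The log2 fold change then ranged from -0.50 to -0.34 over all 6 libraries left out.

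*Nfkbib* (chr7:28758251-28767512, minus strand), the gene of IκBβ, had 58.7, 71.3 and 66.6 CPM with isotype control against 58.6, 60.3 and 55.1 CPM with CD200-Fc. Isotype replicate 16 lay inside the CD200-Fc range. The log2 fold change was -0.17 (interval -0.36 to 0.01; edgeR adjusted p = 0.311). It shares 42 exonic bases with *Sirt2* on the opposite strand. *Nfkbie* (chr17:45555703-45563169, plus strand), the gene of IκBε, was at 19.7, 21.4 and 17.5 CPM with isotype control and 19.5, 23.3 and 17.2 CPM with CD200-Fc, and the CD200-Fc libraries spanned the whole isotype range. Its fitted log2 value was 0.04 (SE 0.13; adjusted p = 0.923 by edgeR).

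The other classical members were also compared with *Nfkbia* within each library. The per-length ratio of *Nfkbib* to *Nfkbia* was 0.517, 0.508 and 0.590 with isotype control and 0.671, 0.635 and 0.640 with CD200-Fc, higher in 3 of 3 libraries. The ratio of *Nfkbie* to *Nfkbia* lay above the isotype libraries in the same way, with a log2 difference of 0.47 (SE 0.106). Both had a two-sided exact permutation p of 0.1 and an adjusted p of 0.171 over 12 ratios, so that neither passed a threshold that the design cannot reach.

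The nuclear IκB proteins bind NF-κB dimers on DNA and can activate transcription. *Bcl3* (chr7:19808462-19822770, minus strand), a partner of p50 and p52 that lies 179 kb from *Relb*, had 160, 179 and 163 CPM with isotype control and 153, 164 and 160 CPM with CD200-Fc. *Nfkbiz* (chr16:55811375-55838899, minus strand), the gene of IκBζ, had 45.3, 43.6 and 39.5 CPM with isotype control and 40.9, 44.9 and 39.6 CPM with CD200-Fc. The groups overlapped for both genes, and the log2 fold changes were -0.07 (interval -0.20 to 0.06) for *Bcl3* and -0.03 (SE 0.09) for *Nfkbiz*. The per-length ratio of *Bcl3* to *Nfkb2* went from 3.74, 3.89 and 4.35 to 5.22, 5.82 and 6.13, with every CD200-Fc library higher.

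**Figure D2:**
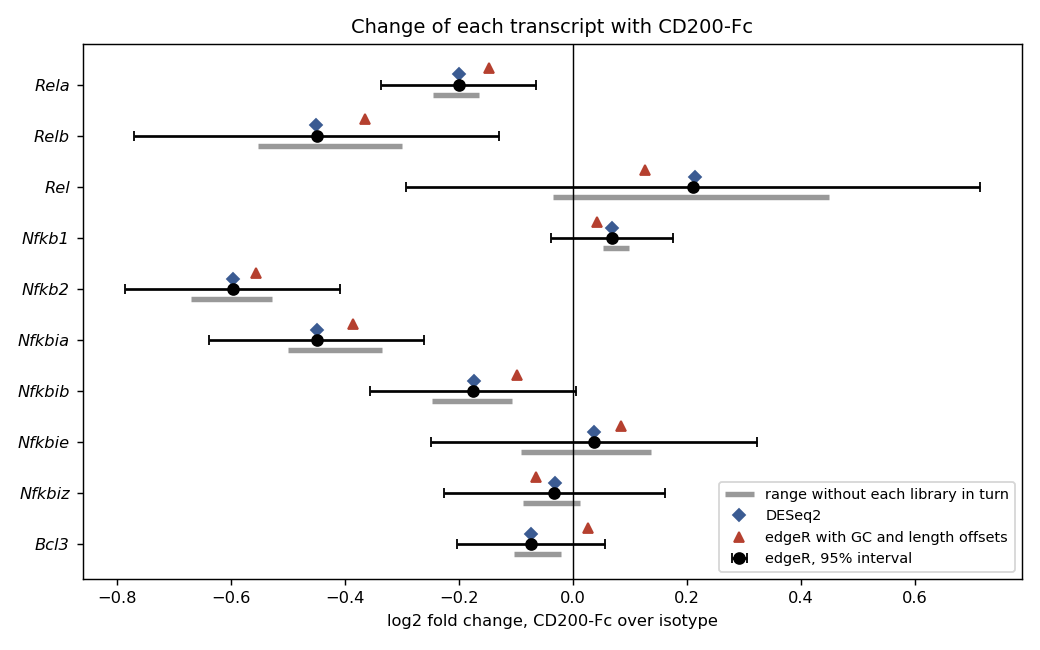
Log2 fold change of CD200-Fc over isotype control for each transcript (horizontal axis), with the edgeR 95% interval in black, DESeq2 as blue diamonds, edgeR with GC and length offsets as red triangles and the range without each library in grey. *Nfkb2* at -0.60 and *Nfkbia* at -0.45, and the uncalled *Relb* at -0.45 and *Rela* at -0.20, lie left of 0 under all of them. *Bcl3* crosses 0 with the offsets.

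Over the family, isotype replicate 17 was the highest of the 6 libraries for 5 members (*Relb*, *Nfkb2*, *Nfkbia*, *Nfkbib* and *Bcl3*). CD200-Fc replicate 38 was the lowest for 5 members (*Relb*, *Nfkb2*, *Nfkbia*, *Nfkbib* and *Nfkbie*). How often each library was the highest or lowest over all genes was not counted. Replicate 38 was also the library with the most *Lyz2* and *Mmp8* (3.65 CPM against at most 0.987 CPM elsewhere). The other neutrophil markers did not follow *Mmp8*, with *S100a8* and *S100a9* at 0 CPM in replicate 38 and *Ly6g* at 0.414 CPM against 0.493 CPM in isotype replicate 17. Without CD200-Fc replicate 38 the log2 fold change of *Nfkb2* was -0.55 (edgeR adjusted p = 0.0287) and that of *Nfkbia* -0.42 (edgeR adjusted p = 0.0794). Without isotype replicate 17 the log2 fold change of *Relb* was still negative, as it was without each other library, within -0.55 to -0.30.

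Levels between genes were compared per transcript length, as TPM, which divide counts by transcript length and scale each library to the same sum. With isotype control *Bcl3* stood first at 170.3 ± 7.34 TPM (SD, n = 3), followed by *Nfkb1* at 148 ± 2.53, *Nfkbia* at 112 ± 12.6, *Rela* at 98.1 ± 5.43 and *Nfkbib* at 59.9 ± 4.81 TPM. Lower came *Nfkb2* at 42.9 ± 4.11, *Relb* at 26.3 ± 4.31, *Nfkbiz* at 19.6 ± 1.495, *Nfkbie* at 15.1 ± 1.38 and *Rel* at 1.66 ± 0.274 TPM. Of the neighbours in this order only *Nfkbia* and *Rela* overlapped between libraries. With CD200-Fc, *Nfkbia* at 83.7 ± 3.40 TPM came after *Rela* at 87.4 ± 5.92 TPM, and the neighbours *Bcl3* and *Nfkb1*, *Rela* and *Nfkbia*, and *Relb* and *Nfkbiz* overlapped.

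Summed over all 10 members the level was 686.3, 728.2 and 666.1 TPM with isotype control and 639.9, 637.5 and 631.0 TPM with CD200-Fc. The 3 classical IκB genes together went from 186.7 ± 17.2 to 153.8 ± 7.20 TPM and the 3 transcription factor subunits from 126.1 ± 6.24 to 109.1 ± 7.81 TPM. The ratio of these sums within a library overlapped between the groups, with a log2 difference of -0.07 (SE 0.111; two-sided exact permutation p = 0.7). The precursors together stood at 190.9 and 188.0 TPM, where *Nfkb1* outweighed *Nfkb2*.

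**Figure D3:**
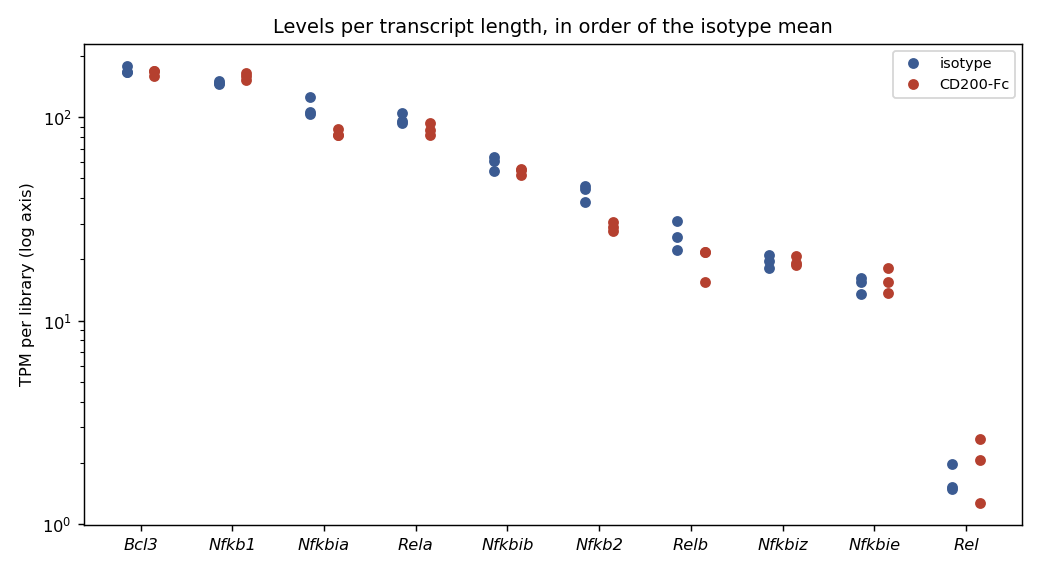
Levels per transcript length (TPM, log axis) of the 10 transcripts in each isotype (blue) and CD200-Fc (red) library, ordered by the isotype mean. The family spans from *Bcl3* at 170.3 TPM to *Rel* at 1.66 TPM with isotype control.

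In all, 12 ratios were compared, of which 7 did not overlap between the groups, 2 lower and 5 higher with CD200-Fc. All of these 7 except *Nfkb1* to *Rela* contain *Nfkb2* or *Nfkbia*, the 2 called genes, so the count largely restates those calls. The share among ratios of other genes was not computed, and of single genes 11.2% did not overlap with CD200-Fc lower and 11.6% with CD200-Fc higher. The non-canonical pair over the canonical pair, (*Relb* + *Nfkb2*) / (*Rela* + *Nfkb1*), was 0.280, 0.314 and 0.250 with isotype control and 0.207, 0.216 and 0.172 with CD200-Fc, lower by 0.51 on the log2 scale (SE 0.139; two-sided exact permutation p = 0.1, adjusted p = 0.171). The ratio of *Nfkb1* to *Rela* was 1.41, 1.60 and 1.53 against 1.70, 1.86 and 1.91, with all CD200-Fc libraries above. For *Relb* to *Nfkb2* the groups overlapped, with a log2 difference of 0.14 (SE 0.143). The ratios share members and are not independent of each other.

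**Figure D4:**
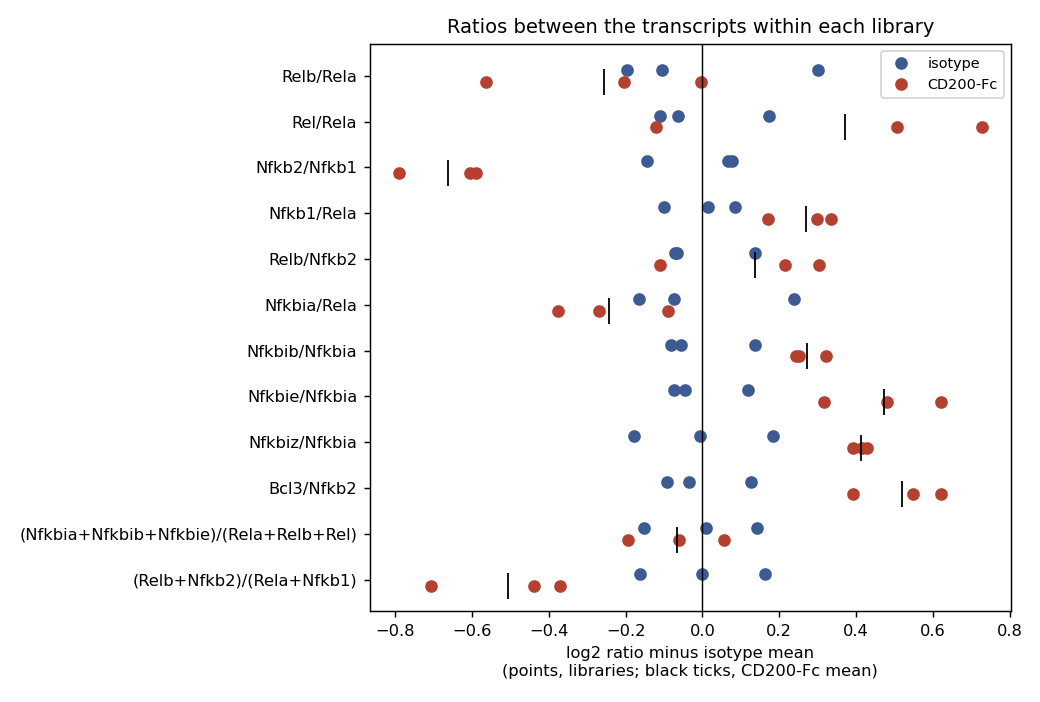
Log2 ratios between transcripts in each library (horizontal axis, relative to the isotype mean), with isotype libraries in blue, CD200-Fc libraries in red and the CD200-Fc mean as a black tick. *Nfkb2* to *Nfkb1* lies lower by 0.66 and *Bcl3* to *Nfkb2* higher by 0.52 on the log2 scale, without overlap.

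GC content moved with the fold changes of all genes. When all tested genes were cut into 5 equal bins from low to high GC content of the transcript, the median log2 fold change went 0.05, 0.03, -0.01, -0.03 and -0.05. The family is GC-rich, with 6 members in the highest bin, among them *Nfkb2* at 59.3%, *Rela* at 59.4% and *Relb* at 61.1%, while *Nfkbia* has 52.9%. With offsets for GC content and length, the log2 value of *Nfkb2* was -0.56 (adjusted p = 0.00534 by edgeR) and that of *Nfkbia* -0.39 (adjusted p = 0.0282), and both calls held. *Rela* then had -0.15 and *Relb* -0.36.

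**Figure D5:**
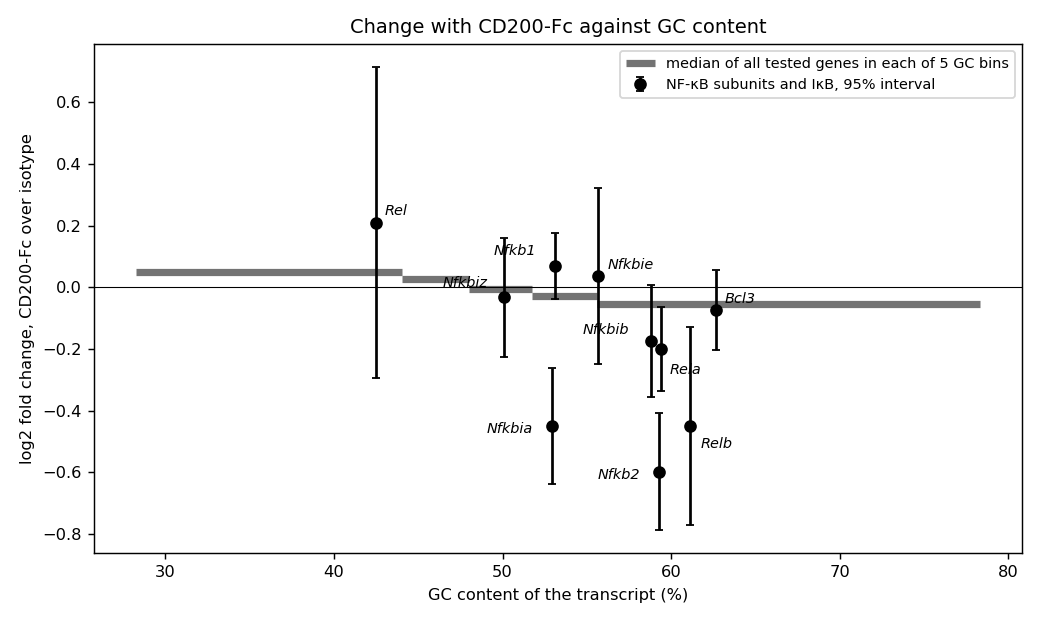
Log2 fold change of CD200-Fc over isotype control (vertical axis) against GC content of the transcript in percent, with the 10 transcripts as points with 95% intervals and the median of all tested genes in each of 5 bins of GC content as grey lines. The grey lines go from 0.05 to -0.05, and *Nfkb2* and *Nfkbia* lie below them.

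Other genes of the pathway were grouped in lists by their role. Among 20 genes of the canonical upstream arm 1 was called lower and 0 higher, where 0.595% of all tested genes were called lower and 1.48% higher. The called gene was *Tab2*, an adaptor of the kinase TAK1, at 56.7, 43.7 and 50.4 CPM with isotype control and 37.5, 38.7 and 37.4 CPM with CD200-Fc (log2 fold change -0.41, edgeR adjusted p = 0.0479). That call was lost without each library except isotype replicate 17, with an edgeR adjusted p of up to 0.168, and under limma-trend on the authors' signal (0.0819 and 0.0629 with pseudocounts of 1 and 0.1). At an unadjusted edgeR p under 0.05 the list had 4 genes higher and 2 lower, where 17.1% of all genes passed in either direction. DESeq2 called 1 higher, *Tbk1*, and 2 lower, *Irak3* and *Tab2*, where it called 6.38% higher and 3.5% lower of the genes it adjusted. The median of the list was 0.02 as a log2 fold change. The catalytic IκB kinase genes, named here after their values were seen, lay above isotype control in every CD200-Fc library without passing the test, with log2 fold changes of 0.19 for *Chuk* and 0.14 for *Ikbkb* (edgeR adjusted p = 0.167 and 0.279).

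None of 5 genes of the non-canonical upstream arm was called, and 2 of them had an unadjusted edgeR p under 0.05, both lower. *Map3k14*, which encodes NIK, had the smallest p, with 19.3, 20.6 and 22.4 CPM against 17.3, 14.3 and 15.6 CPM and a log2 difference of -0.40 by edgeR (adjusted p = 0.102). Among 12 negative regulators 0 were called, with 1 higher and 3 lower at an unadjusted edgeR p under 0.05, and *Zc3h12a*, the RNase Regnase-1, had the smallest p (log2 fold change -0.60, edgeR adjusted p = 0.0974). Of 17 cofactors 0 were called, with 1 higher and 5 lower at an unadjusted edgeR p under 0.05. Of the 2 remaining IκB-related genes, neither called, *Nfkbid* had the smaller p, with a log2 fold change of -0.12. DESeq2 called *Map3k14* and *Zc3h12a* lower and 3 cofactors lower, and 0 genes of these 3 groups higher. Beside these counts, 17.1% of all tested genes had an unadjusted edgeR p under 0.05, in either direction. Of the genes it adjusted, DESeq2 called 3.5% lower and 6.38% higher.

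Of 38 known NF-κB target genes listed, 26 were tested, and 3 were called lower, 1 higher and 22 not at all. Of all tested genes 0.595% were called lower and 1.48% higher. At an unadjusted edgeR p under 0.05 the list had 8 genes lower and 1 higher, where 17.1% of all genes passed in either direction. DESeq2 called 4 lower, among them *Ltb*, and 1 higher, where it called 3.5% and 6.38% of the genes it adjusted. *Csf2*, the gene of GM-CSF, went from 353 ± 14.6 to 239 ± 8.05 CPM (SD, n = 3), or -0.57 on the log2 scale by edgeR (adjusted p = 0.000175). *Lta*, the gene of lymphotoxin-α, changed by -0.93 on the log2 scale (adjusted p = 0.000375 by edgeR), and the survival gene *Bcl2l1* by -0.40 (adjusted p = 0.0172). *Il2ra*, the high-affinity chain of the IL-2 receptor, rose by 0.23 on the log2 scale (adjusted p = 0.0119 by edgeR). The edgeR calls of *Csf2* and *Lta* held without each library in turn. That of *Bcl2l1* was lost without isotype replicate 18 (adjusted p = 0.0525), CD200-Fc replicate 35 (0.0725) or CD200-Fc replicate 36 (0.0714), and that of *Il2ra* without isotype replicate 18 (0.0553) or CD200-Fc replicate 35 (0.0725). The call of *Il2ra* was also lost with GC and length offsets (adjusted p = 0.0515) and under limma-trend with a pseudocount of 1 (adjusted p = 0.0856). The median log2 fold change of the 26 genes was -0.15, beside -0.0035 over all tested genes.

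The genes most like *Nfkb2* across the 6 libraries, by Pearson correlation of log2 CPM, were *Rn7sk* (0.997), *Hacd3* (0.995) and *Mgat5* (0.992). The points share the 2 groups and the library scaling, and the values are a description.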

How the data were processed

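RNA had been sequenced from 6 samples, 3 per group. The authors demultiplexed reads with bcl2fastq 2.17.1.14, used STAR 2.5.3a with the mm10 genome for alignment, and assigned reads to genes by Partek's expectation maximization. The expected counts of 22554 genes were deposited by the authors without normalization. The deposited normalized signal of 17194 genes equals the count plus 1 times 1 factor per sample, as read from the values. For the annotation release and the strand setting, the sources used here give nothing.

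The quasi-likelihood F test of edgeR 4.0.16 (R 4.3.3) was run on rounded expected counts of the 14124 genes passing filterByExpr, after TMM scaling, with Benjamini-Hochberg adjustment over all tested genes and a threshold of 0.05. The common biological coefficient of variation was 10.8%. TPM used the GENCODE M21 transcript, and gene positions are those of GENCODE M21, which matched the deposited positions except that deposited ends lie 1 base later. Ratios were compared by exact permutation. Alternatives used DESeq2 1.42.0, limma 3.58.1, pseudocounts of 1 and 0.1 on the signal, other scalings and filters, GC and length offsets (loess, span 0.3) and leaving out each library. On simulated counts the fit recovered 86% of 100 genes with a 1.5-fold and 99% of 100 with a 2-fold change. There were 9 false calls among 13924 unchanged genes. The changed genes were drawn only from genes at or above a minimum mean log2 CPM. Each gene took the dispersion fitted for its level, not one of its own, and no GC trend was simulated. These shares therefore do not give the recovery in the real data.

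The members and lists were chosen with earlier results of these data known, and the study itself named several members from these libraries. Besides the members, each pathway list's called genes were named (at most 4, or otherwise the gene with the smallest p), and the 3 genes most correlated with the member of smallest p. A gene that this rule names is not reported here. *Chuk*, *Ikbkb*, *Tbk1*, *Irak3*, *Ltb* and the single marker genes were named outside it, after their values were seen. Figures were drawn with matplotlib 3.10.9.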

Additional observations from a re-analysis of the deposited data

How the results depend on the processing

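*Nfkb2* was called in all 16 alternatives and *Nfkbia* in 11 of 16. DESeq2 called 4 members lower and limma-trend on the authors' signal with a pseudocount of 1 called 1, since *Nfkbia* then had an adjusted p of 0.0570. Leaving out each library in turn gave 1 to 2 members lower, while the share of all genes called lower was 0.117 to 0.571% in those fits. Signs turned without single libraries for log2 fold changes that were not called, in ranges of -0.034 to 0.45 for *Rel*, -0.091 to 0.14 for *Nfkbie* and -0.087 to 0.012 for *Nfkbiz*, and for *Bcl3* with GC and length offsets (0.026). The log2 ratio of the classical IκB genes to the transcription factor subunits turned to 0.0050 without isotype replicate 17 (-0.14 to 0.0050 over all libraries left out). Of the pathway list genes, DESeq2 called 11 lower and 2 higher, and without each library 2 to 4 were lower (2 without isotype replicate 18, CD200-Fc replicate 35 or CD200-Fc replicate 36) and 0 to 1 higher (0 without isotype replicate 18 or CD200-Fc replicate 35). A minimum of 10 counts in every sample and robust dispersions each gave 2 higher. Limma-trend with a pseudocount of 1 and the GC and length offsets each gave 0 higher. The share of all genes called also differed between fits. DESeq2 called 3.5% lower and 6.38% higher, and the fits without each library 0.117 to 0.571% lower and 0.186 to 1.57% higher. The share called higher was 2.5% with the count minimum and 1.83% with robust dispersions. It was 0.238% with that limma-trend fit and 1.2% with the offsets. With coding length in place of transcript length, 2 members changed rank by isotype level. The cause of these differences was not tested.

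No paired analysis was possible because the groups share no replicate numbers. With 3 libraries a group, *Rel* had the widest interval of the members.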
